A study of Mus musculus with 8 samples.

Results

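The genes described are the proteasome subunits, activators and assembly factors of mouse tibialis anterior muscle, taken as every gene on the array whose symbol begins with Psma, Psmb, Psmc, Psmd, Psme, Psmf or Psmg. The rule found 45 genes of the 16593 measured, on 67 probes, and each gene is represented by its brightest probe over the 8 arrays. Among them 43 encode a subunit, an activator or an assembly factor, and Psmc3ip, a meiotic recombination factor, and Psme3ip1, a protein that binds the activator PSME3, met the rule by name only. Muscles came from male C57BL/6 mice, an inbred laboratory strain, aged 8 weeks, and were taken 7 days after transfection with a plasmid for spermine oxidase or with a control plasmid. Each group held 4 muscles, and RNA of every muscle was run on its own Illumina MouseRef-8 bead array. Spermine oxidase is the product of Smox, and it converts the polyamine spermine to spermidine with hydrogen peroxide as a by-product. The labels do not say what the control plasmid carries, what share of fibres took up DNA, which promoter drives the plasmid, or how many animals the muscles represent, and p-values therefore cover only the variation among these samples, part of which may be technical.

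The proteasome is the barrel-shaped protease that degrades ubiquitin-tagged proteins. Its core, the 20S particle, stacks rings of alpha subunits, which form the gate, and beta subunits, of which PSMB5, PSMB6 and PSMB7 cut peptides. A 19S cap of ATPases and lid subunits binds, unfolds and feeds the substrate. Interferon induces PSMB8, PSMB9 and PSMB10, which replace the standard catalytic subunits in newly made cores and give the immunoproteasome, and it also induces the activator subunits PSME1 and PSME2. In skeletal muscle the ubiquitin-proteasome pathway degrades contractile proteins during atrophy.

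All values are log2 signals as deposited, from 8.10 to 15.29 with a median of 8.33 over all probes, and differences are spermine oxidase minus control with standard errors from limma. The scale has a floor near its lower end, so differences of dim genes are understated. Precision is limited by how few arrays there are. Smox itself read 10.78 ± 0.43 (SD, n = 4) in control and 11.94 ± 0.47 (SD, n = 4) in spermine oxidase muscles on its brightest probe, without overlap (exact two-sided permutation p = 0.0286, the smallest that 70 splits can give). In the limma fit used below, its difference of 1.16 ± 0.28 had an unadjusted p = 0.00376 and an adjusted p = 0.233. That fit therefore did not call the transfected gene either, and a gene that does not pass may still differ. The 8 fast fibre markers averaged 14.56 to 14.75 across the muscles, near the top of the scale.

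The typical proteasome mRNA differed little between the groups. The median difference over the 45 genes was -0.00037 on the log2 scale, against -0.00064 over all genes. Of the 45, 36 differed by less than 0.1, a count that was not taken over all genes. They include Psmb8, Psmb10, Psme2 and Psma7, whose standard errors of 0.12 to 0.23 exceed 0.1, so a small difference is not shown for these genes. Nor is it shown for others of the 36, such as Psma4, Psmd14, Psmb3 and Psmd6, with standard errors of 0.073 to 0.088. With limma, 0 of the 45 passed an adjusted p of 0.05, as did 0% of all genes, and the smallest adjusted p was 0.254. At an unadjusted p under 0.05, 2 genes were higher (Psme4 and Psmd11), where 6.33% of all genes were, and 1 was lower (Psmd10), where 4.72% were. The groups did not overlap for 1 gene in each direction, Psme4 higher and Psmd10 lower, beside 3.66% and 2.51% of all genes, so neither share of the members stands above its background. The count of 2 became 1 without control replicate 1, 2 or 4 or without spermine oxidase replicate 2 or 3, and 5 without spermine oxidase replicate 4, and the count of 1 became 3 without control replicate 4 or spermine oxidase replicate 3 and 4 without spermine oxidase replicate 2. With the replicate number as a block, 0 members passed the adjusted threshold, beside 1.6% of all genes, and 11 had an unadjusted p under 0.05, beside 15.9%. Of these 11, 5 were higher (Psme4, Psmd11, Psmd2, Psmd7 and Psmb7) and 6 lower (Psmd10, Psmc2, Psma5, Psmb1, Psme1 and Psmc3). All 4 differences between equally numbered muscles were positive for 7 members and negative for 5, beside 11.3% and 11.1% of all genes. The 7 were Psme4, Psmd11, Psmd2, Psmd7, Psmb7, Psmc6 and Psmd9, and the 5 were Psmd10, Psmc2, Psmb1, Psme1 and Psmg3.

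**Figure D1:**
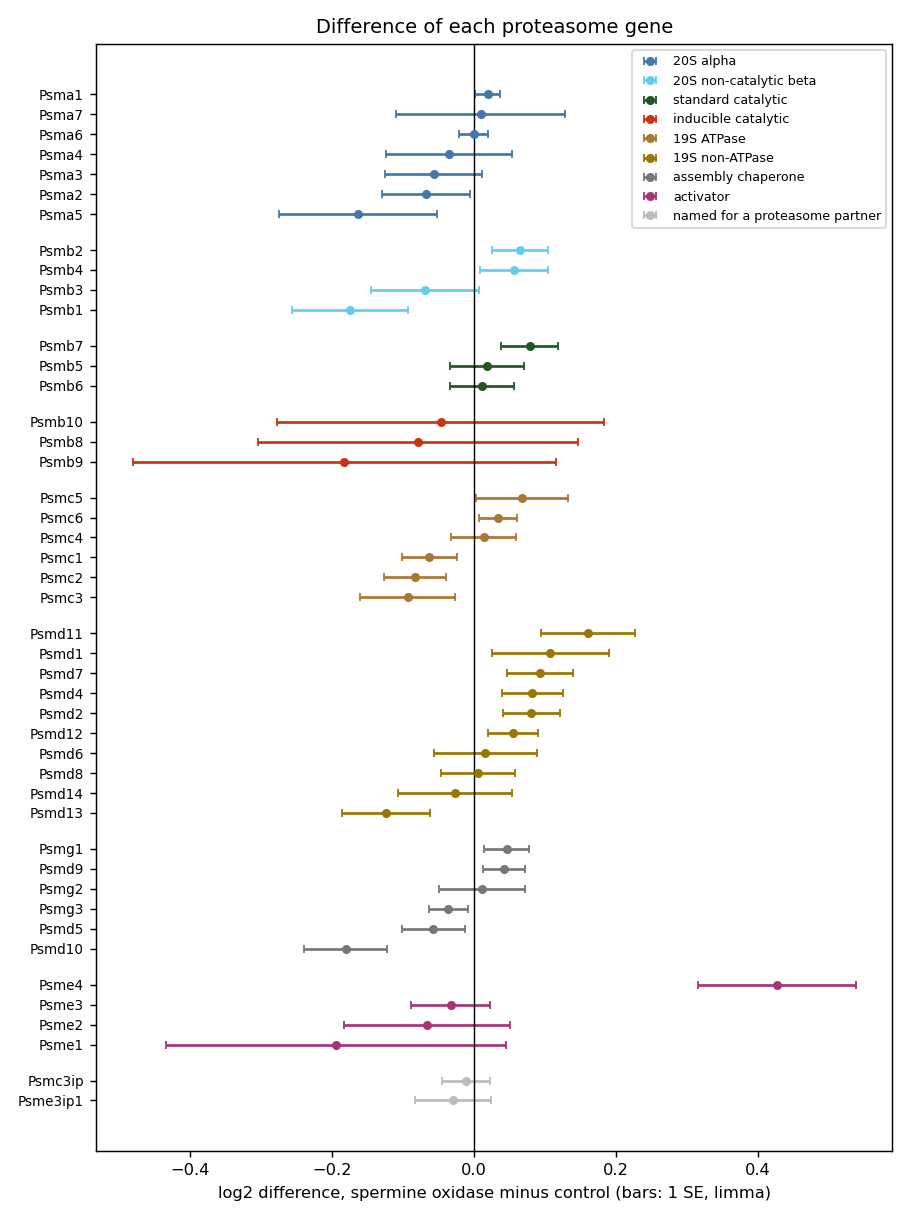
The log2 difference (spermine oxidase minus control) of each of the 45 genes is plotted on the x axis with 1 standard error from limma, with the genes grouped by role on the y axis. Psme4, at 0.43, lies furthest from 0, and the inducible catalytic subunits and Psme1 have the widest errors.

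The largest difference belonged to an activator. Psme4 encodes PA200, a nuclear activator that caps the core without ubiquitin or ATP and is known in mouse testis for the breakdown of acetylated histones. Its control muscles 1 to 4 read 12.68, 12.55, 12.44 and 12.40, and its spermine oxidase muscles 1 to 4 read 13.20, 12.78, 13.05 and 12.76. Every spermine oxidase muscle lay above every control muscle, and the difference of 0.43 ± 0.11, or 1.34-fold, had a limma unadjusted p = 0.00537 and an adjusted p = 0.254, the 347th smallest p of all genes. Muscles with more Smox tended to have more Psme4: spermine oxidase muscles 1 and 3 were the highest for both genes, at 12.58 and 12.02 for Smox, and control muscle 4 was the lowest for both, at 10.17 for Smox. This resemblance was seen in the values and was not tested. A second Psme4 probe lay near the floor, at a mean of 8.43, and differed by 0.042 ± 0.034. Leaving out any 1 muscle kept the Psme4 difference between 0.34 and 0.49.

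The promoter of Psme4 (RefSeq, GRCm38.p6, 250 bases before to 50 after the start) is shown because this gene carried the largest difference. That of Psmb5 is shown because it encodes a standard catalytic subunit of the constitutive core described below. Capitals mark the core of the antioxidant response element, TGACNNNGC on either strand, the kind of site through which the transcription factor NFE2L1 acts on proteasome genes. It begins 7 bases before the start of Psme4, on the opposite strand, and 47 bases before the start of Psmb5, on the gene's own strand.
Psme4 promoter, chr11:30771525-30771824, plus strand: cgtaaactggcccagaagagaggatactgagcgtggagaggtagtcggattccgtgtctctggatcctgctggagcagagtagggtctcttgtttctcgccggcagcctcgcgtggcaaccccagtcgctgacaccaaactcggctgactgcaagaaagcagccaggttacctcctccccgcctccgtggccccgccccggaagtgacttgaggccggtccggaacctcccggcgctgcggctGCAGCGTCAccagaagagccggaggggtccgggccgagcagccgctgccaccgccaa
Psmb5 promoter, chr14:54617946-54618245, minus strand: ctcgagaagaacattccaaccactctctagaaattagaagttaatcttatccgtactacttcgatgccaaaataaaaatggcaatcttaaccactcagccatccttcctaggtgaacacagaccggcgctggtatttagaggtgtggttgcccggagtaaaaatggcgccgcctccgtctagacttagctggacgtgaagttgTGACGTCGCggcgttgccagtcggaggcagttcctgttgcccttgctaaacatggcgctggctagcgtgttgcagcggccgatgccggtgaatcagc
Of 39 members with a promoter in the table, 6 hold this motif (Psmb5, Psmb6, Psmc6, Psmd12, Psmd9 and Psme4), which is 15.4%, against 14% of the 27025 genes with a promoter and 12.4% of the 32851 promoters. The share is close to that of all genes, and a match is a string of letters, not a measured site. The motif stands in 2 of 11 constitutive core promoters (Psmb5 and Psmb6) and in 0 of 5 inducible promoters, so Psmb5 is not typical of the core here.

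The other activators differed less than their spread. Psme3, the nuclear activator PA28 gamma, read 10.66, 10.53, 10.51 and 10.37 in control muscles 1 to 4 and 10.51, 10.51, 10.46 and 10.46 in spermine oxidase muscles 1 to 4. The groups overlapped, with a difference of -0.033 ± 0.055. Psme1 and Psme2 are described with the inducible subunits.

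The standard catalytic subunits varied little between muscles, and none passed an adjusted p of 0.05. Psmb5, which carries the chymotrypsin-like activity, read 11.50, 11.35, 11.30 and 11.26 in control and 11.37, 11.44, 11.34 and 11.34 in spermine oxidase muscles, numbered 1 to 4 (difference 0.019 ± 0.052). Psmb6, the caspase-like subunit, read 12.80, 12.64, 12.70 and 12.69 in control and 12.71, 12.81, 12.71 and 12.63 in spermine oxidase muscles (0.011 ± 0.045). For both genes the groups overlapped throughout. Psmb7, the trypsin-like subunit, read 13.31, 13.25, 13.31 and 13.21 against 13.33, 13.37, 13.43 and 13.27, a difference of 0.078 ± 0.040 that also overlapped and did not pass (limma unadjusted p = 0.0881, adjusted p = 0.542). Its dimmer probes also read higher, by 0.16 ± 0.051 (limma unadjusted p = 0.0133) and 0.11 ± 0.063. Like other members named above, Psmb7 was higher on its brightest probe in all 4 equally numbered comparisons, by 0.017, 0.12, 0.12 and 0.054. With the replicate block its limma unadjusted p was 0.0315 and its adjusted p 0.25.

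Most inducible genes varied far more between muscles than the standard subunits, and the groups overlapped for all 5. Psmb8 read 9.80, 9.98, 10.28 and 9.56 in control muscles 1 to 4 and 9.43, 10.12, 10.23 and 9.53 in spermine oxidase muscles 1 to 4 (difference -0.079 ± 0.22). Psmb9 read 12.02, 12.41, 12.62 and 11.69 in control and 11.39, 12.34, 12.54 and 11.75 in spermine oxidase muscles (-0.18 ± 0.30). Control muscle 3 was the highest and control muscle 4 the lowest of their group for both genes, and spermine oxidase muscle 1 was the lowest of its group. Psmb10 followed the same order, with 12.90, 13.04, 13.23 and 12.48 in control and 12.47, 13.19, 13.24 and 12.55 in spermine oxidase muscles (-0.047 ± 0.23). Its second probe, at a mean of 12.57, differed by -0.19 ± 0.26. Psme1, the alpha subunit of the PA28 activator, read 13.07, 13.36, 13.66 and 12.85 in control and 12.62, 13.32, 13.46 and 12.77 in spermine oxidase muscles (-0.19 ± 0.24). A second Psme1 probe differed by -0.11 ± 0.26. Between equally numbered muscles 1 to 4 the brightest Psme1 probe differed by -0.45, -0.048, -0.20 and -0.080. With the replicate block its limma unadjusted p was 0.0430 and its adjusted p 0.29. Leaving out any 1 muscle kept the Psme1 difference between -0.33 and -0.053. The groups overlapped for each of these genes, and the highest and lowest muscles were again the same. Psme2, the beta subunit, spanned less, at 10.31, 10.26, 10.38 and 10.11 against 9.98, 10.44, 10.37 and 10.02 (-0.066 ± 0.12). Adjusted limma p-values of these 5 genes ran from 0.827 to 0.964, and all 5 means were lower after spermine oxidase. Their median difference of -0.079 was 0.023 without spermine oxidase replicate 1, -0.005 without spermine oxidase replicate 4, -0.027 without control replicate 3, -0.19 without control replicate 4, -0.18 without spermine oxidase replicate 2 and -0.21 without spermine oxidase replicate 3, so its direction rests on single muscles. In whole-muscle RNA, fewer cells of a type and less RNA per cell cannot be told apart.

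**Figure D2:**
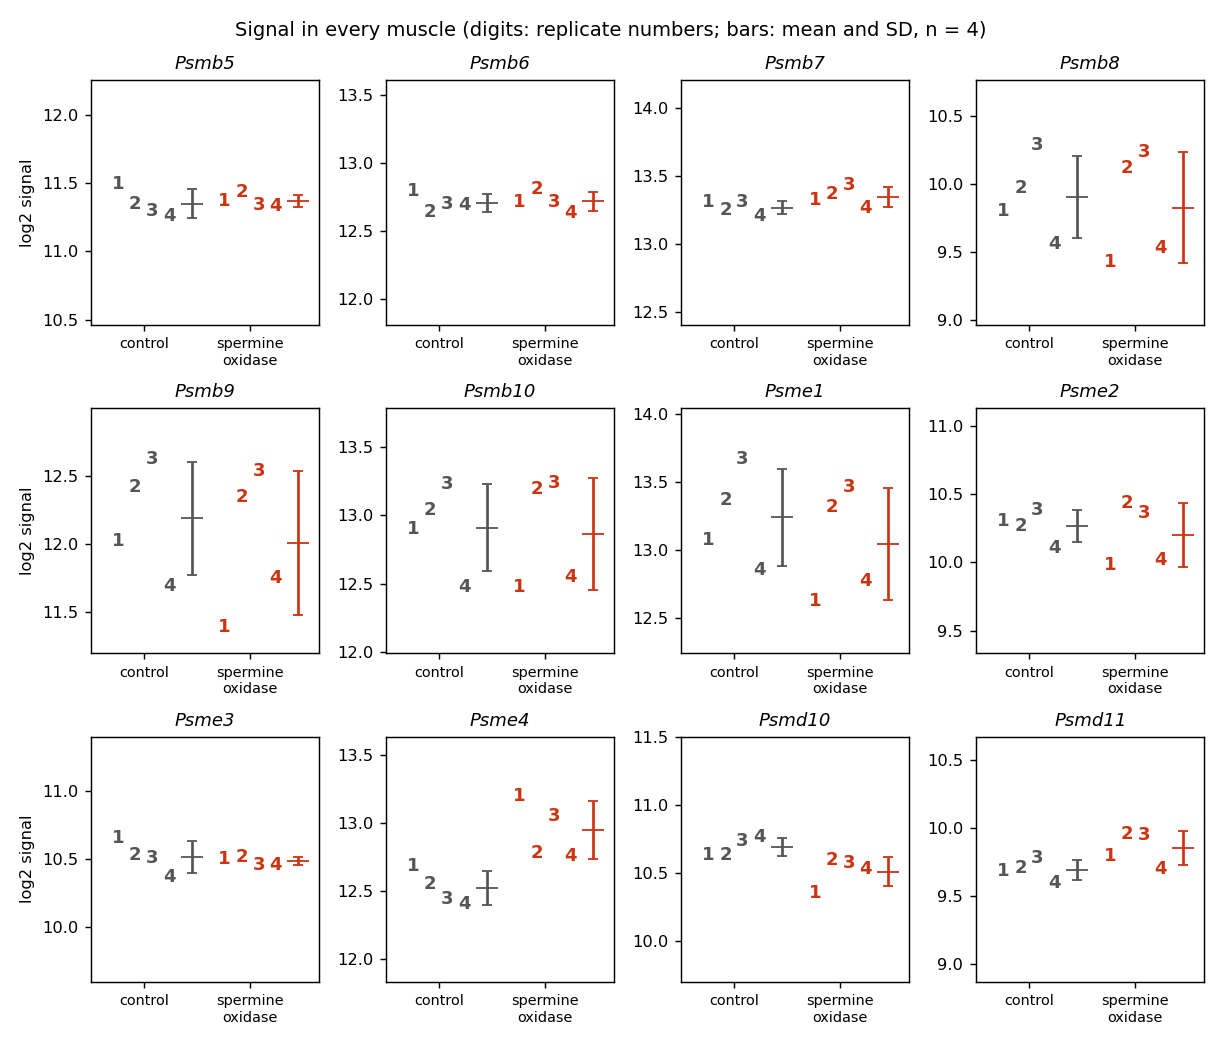
The log2 signal of 12 proteasome genes is plotted for each muscle on a y axis that spans the same number of log2 units in every panel, with digits for the replicate numbers and bars for the group mean and SD (n = 4). The standard subunits Psmb5, Psmb6 and Psmb7 are nearly level, Psmb8, Psmb9, Psmb10 and Psme1 spread widely within both groups, and Psme4 and Psmd10 separate the groups.

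Each inducible catalytic subunit was set against the standard subunit that it replaces, as the log2 ratio within a muscle, to ask whether the balance differed between the groups. The 3 ratios were tested by the exact two-sided permutation test over 70 splits and adjusted over the 3, and none passed. The Psmb8 to Psmb5 ratio differed by -0.098 (exact permutation p = 0.686, adjusted p = 0.686), with a 95% interval, from inverting the test, of -0.93 to 0.59. For Psmb9 to Psmb6 the ratio differed by -0.19 (exact permutation p = 0.571, adjusted p = 0.686, interval -1.25 to 0.82). For Psmb10 to Psmb7 it differed by -0.13 (exact permutation p = 0.657, adjusted p = 0.686, interval -0.77 to 0.56). These intervals treat the groups as unpaired and carry the full spread between muscles. Between equally numbered muscles 1 to 4 the Psmb8 to Psmb5 ratio differed by -0.24, 0.057, -0.097 and -0.11, the Psmb9 to Psmb6 ratio by -0.55, -0.25, -0.095 and 0.11, and the Psmb10 to Psmb7 ratio by -0.44, 0.035, -0.11 and 0.017. Each ratio thus differed in both directions, and exact sign-change permutation gave p = 0.25, p = 0.375 and p = 0.5, where 4 differences allow no p below 0.125. The sign of the Psmb8 to Psmb5 difference turned without control replicate 3 (0.047) or spermine oxidase replicate 1 (0.035), and that of Psmb9 to Psmb6 without spermine oxidase replicate 1 (0.011). The Psmb10 to Psmb7 difference shrank to -0.0019 without spermine oxidase replicate 1.

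Of the inducible genes, Psmb8, Psmb9, Psmb10 and Psme1 had the widest spread within groups of all 45 genes, and Psme2 did not stand apart. The within-group SD was 0.48 for Psmb9, 0.38 for Psme1, 0.37 for Psmb10, 0.36 for Psmb8 and 0.19 for Psme2, beside 0.060 for Psmb7, 0.069 for Psmb6 and 0.080 for Psmb5. The median over all genes was 0.046, and the 5 inducible genes lay between the 92.8th and the 99.6th percentile of all genes. The other 40 proteasome genes had a median SD of 0.080, and 3 of them (Psma7 at 0.19, Psma5 at 0.18 and Psme4 at 0.18, about level with Psme2) lay among the 10% of genes with the largest SD. From the lowest to the highest of the 8 muscles, Psmb9 spanned 2.35-fold, Psme1 2.06-fold, Psmb8 1.81-fold and Psmb10 1.70-fold, and Psmb6 spanned 1.13-fold. SDs near the floor are compressed, and all are given as a description, with no test.

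**Figure D3:**
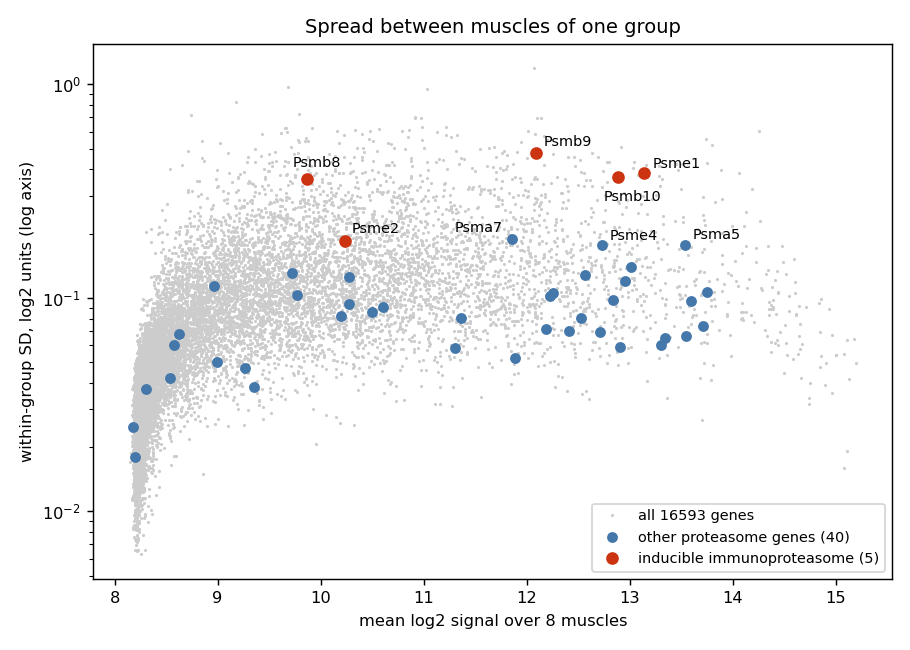
Within-group SD on a logarithmic y axis is plotted against mean log2 signal on the x axis for all 16593 genes, with the 5 inducible genes and the other 40 proteasome genes marked. Psmb9, Psme1, Psmb10 and Psmb8 lie at the upper edge of the cloud at their signal, and most other proteasome genes lie well below them.

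The order of the muscles was shared between the groups by replicate number. For Psmb8, Psmb9, Psmb10 and Psme1, the muscles numbered 2 and 3 of both groups all read above the muscles numbered 1 and 4 of both groups. Among the constitutive core genes 1 of 14 had this order (Psma5), and 3.04% of all genes had it. Whether muscles with equal numbers share a mouse or a batch is not given in the labels, although bilateral muscles are mentioned in the protocol. The order was noticed in the values and not tested.

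Genes that interferon is known to induce, listed for antigen presentation and interferon response, had the same order in 19 of 24 cases. They include Tap1, the peptide transporter whose gene neighbours Psmb9, which read 9.72, 9.98, 10.08 and 9.37 in control and 9.24, 10.01, 10.11 and 9.50 in spermine oxidase muscles. The transcription factor gene Irf1 read 13.35, 13.61, 13.88 and 13.03 in control and 12.93, 13.77, 13.90 and 13.12 in spermine oxidase muscles. Both were picked after their values were seen, as examples of the shared order. Of the 24 measured genes 5 were higher and 19 lower after spermine oxidase, where 8422 of all 16593 genes were lower. In limma 0 had an unadjusted p under 0.05, beside 11% of all genes. Spermine oxidase muscle 1 was the lowest of its group for 22 of the 24, beside 4572 of all genes, so the 19 are not separate results. The members with the smallest p were Ifngr1, the interferon gamma receptor chain (-0.082 ± 0.058), the class I genes H2-D1 (-0.20 ± 0.17) and H2-K1 (-0.21 ± 0.19), and the transcription factor gene Irf7 (-0.16 ± 0.14). The mean deviation of the list from its average over 8 muscles was -0.095, 0.14, 0.37 and -0.24 in control muscles 1 to 4 and -0.49, 0.30, 0.27 and -0.26 in spermine oxidase muscles 1 to 4. For the 5 inducible genes it was -0.025, 0.17, 0.39 and -0.31, then -0.47, 0.24, 0.32 and -0.32, muscle by muscle close to the list.

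Markers of immune cells moved with these genes only in part. The 20 measured markers averaged 10.08 to 10.24 in control and 9.81 to 10.15 in spermine oxidase muscles. After spermine oxidase 15 of 20 were lower, where 8422 of all 16593 genes were. Spermine oxidase muscle 1 was the lowest of its group for 10 of the 20, beside 4572 of all genes, so the 15 are not separate results. They include Cd4, Cd8a and Itgax at the floor. The order of the inducible genes was held by 3 of 20 (Coro1a, Cd3e and Cd3g), beside 3.04% of all genes. The 20 include Cd4, Cd8a, Cd79a, Itgax, Flt3 and S100a9 at the floor. Such genes can show little order between muscles, so the count and the mean understate how far the other markers follow it. The 4 general leukocyte markers (Ptprc, Cd52, Coro1a and Laptm5) deviated by -0.025, 0.029, 0.33 and 0.15 in control and -0.59, 0.18, 0.15 and -0.23 in spermine oxidase muscles. The mean of the 6 macrophage markers parted from the inducible genes in control muscle 4, where it was the highest of all muscles, at 0.31, while the inducible genes were low. Lyz2, C1qa, C1qb and Adgre1 were highest there, but Cd163 and Mrc1 were not. Of the 6, 2 were higher and 4 lower after spermine oxidase. Without overlap, Cd163 was higher (0.22 ± 0.044, limma adjusted p = 0.179) and C1qa lower (-0.43 ± 0.14, limma adjusted p = 0.336). Of the T cell genes, Cd4 and Cd8a lay at the floor in every muscle (means of 8.27 and 8.23). Cd3e and Cd3g read means of 9.01 and 9.56 and had the order of the inducible genes. The dendritic cell markers Itgax and Flt3 also lay at the floor. Of the B cell markers, Cd79a lay at the floor and Cd79b read a mean of 8.74. Of the neutrophil markers, S100a9 lay at the floor, while S100a8 ranged from 8.86 in spermine oxidase muscle 3 to 10.19 in control muscle 4 and differed by -0.35 ± 0.23, an order unlike that of the inducible genes. The part of immune cells in the spread was not tested.

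**Figure D4:**
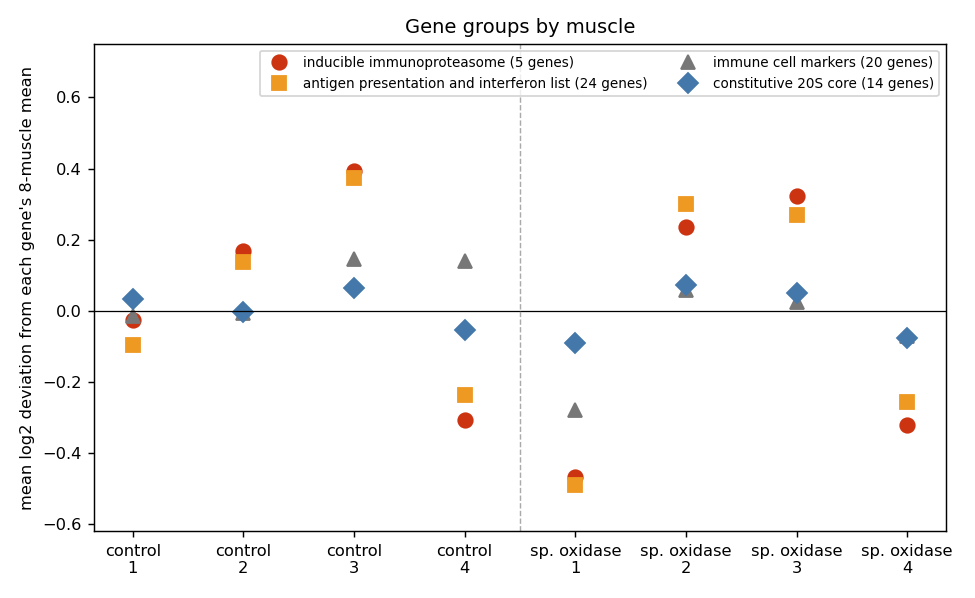
Mean log2 deviation from each gene's 8-muscle mean is plotted on the y axis for 4 gene groups in each muscle on the x axis. The 5 inducible genes and the 24 genes of the interferon list lie close together in every muscle, from -0.49 to 0.39. The 14 constitutive core genes stay within 0.1 of 0, and the immune cell markers part from the inducible genes in control muscle 4. The marker mean includes genes at the floor, which pull it toward 0.

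The promoters of Psmb9 and Psme1 are shown as those of the inducible genes with the widest spread (RefSeq, GRCm38.p6). Capitals mark an interferon response motif, GAAANNGAAA on either strand, which begins at base 10 after the start in Psme1 on the opposite strand, and in Psmb9 a CCAAT box on the opposite strand 8 bases before the start.
Psmb9 promoter, chr17:34187281-34187580, minus strand: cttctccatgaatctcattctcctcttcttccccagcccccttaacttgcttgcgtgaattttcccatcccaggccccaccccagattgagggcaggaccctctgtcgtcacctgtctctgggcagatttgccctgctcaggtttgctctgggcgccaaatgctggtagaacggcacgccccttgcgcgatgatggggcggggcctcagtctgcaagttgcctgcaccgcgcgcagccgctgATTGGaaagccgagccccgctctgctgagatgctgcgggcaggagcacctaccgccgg
Psme1 promoter, chr14:55578244-55578543, plus strand: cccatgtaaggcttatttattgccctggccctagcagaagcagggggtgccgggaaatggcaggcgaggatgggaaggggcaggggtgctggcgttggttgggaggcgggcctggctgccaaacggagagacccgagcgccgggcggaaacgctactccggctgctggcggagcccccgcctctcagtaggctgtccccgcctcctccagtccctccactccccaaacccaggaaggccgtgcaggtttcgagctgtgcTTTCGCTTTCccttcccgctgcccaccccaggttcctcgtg
The interferon motif stands in 1 of the 5 inducible promoters and in 1 of 11 constitutive core promoters, and in 4 of 39 members (Psmb3, Psmd4, Psmd9 and Psme1), against 3.99% of genes with a promoter. The CCAAT box stands in 15 of 39 members, against 41.1% of genes. That these letters are not in the other windows says nothing about the factor.

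The alpha ring showed no member with an unadjusted p under 0.05 among 7. Psma5 read 13.55, 13.63, 13.84 and 13.46 in control and 13.24, 13.63, 13.60 and 13.37 in spermine oxidase muscles (-0.16 ± 0.11), and its muscles took the order of the inducible genes. Psma2 read 13.62, 13.56, 13.73 and 13.62 in control and 13.43, 13.72, 13.58 and 13.53 in spermine oxidase muscles (-0.068 ± 0.062). Both overlapped between the groups. Psma3 (-0.057 ± 0.068), Psma4 (-0.035 ± 0.088) and Psma7 (0.010 ± 0.12) differed by less than their standard errors. Psma1, at 8.18 to 8.20 in control and 8.18 to 8.23 in spermine oxidase muscles, and Psma6 (difference -0.00037 ± 0.020) lay at the floor, as did the ATPase gene Psmc6 (0.034 ± 0.027). Since these subunits belong to every core or cap, the dim reading of these 3 genes says little about their mRNA.

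Of the 4 non-catalytic beta subunits, Psmb1 was lower by -0.17 ± 0.081 (limma unadjusted p = 0.0658, adjusted p = 0.498), with 12.67, 12.63, 12.78 and 12.54 in control and 12.30, 12.63, 12.58 and 12.41 in spermine oxidase muscles. Psmb2 read 12.87, 12.82, 12.93 and 12.87 in control and 12.90, 12.99, 13.01 and 12.86 in spermine oxidase muscles (0.065 ± 0.039). Neither separated the groups. Psmb4 read 13.71, 13.66, 13.73 and 13.65 against 13.68, 13.82, 13.83 and 13.65 (0.057 ± 0.048), and Psmb3 differed by -0.069 ± 0.076. These structural subunits complete the beta rings, and they differed in both directions by small amounts.

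The 6 ATPases of the cap, which unfold the substrate, had 3 members higher and 3 lower and none with an unadjusted p under 0.05. Psmc2 read 13.59, 13.58, 13.69 and 13.51 in control and 13.47, 13.52, 13.59 and 13.46 in spermine oxidase muscles (-0.083 ± 0.044). Psmc1 read 11.35, 11.32, 11.33 and 11.34 in control, a very narrow group, and 11.27, 11.16, 11.36 and 11.29 in spermine oxidase muscles (-0.063 ± 0.039). Psmc3 read 12.44, 12.39, 12.20 and 12.17 against 12.28, 12.23, 12.14 and 12.18 (-0.093 ± 0.067). The groups overlapped for all 3. Psmc5 differed by 0.068 ± 0.065 on its brightest probe and by -0.060 ± 0.050 on the other, so its direction is not settled, and Psmc4 differed by 0.014 ± 0.046.

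Of the 10 non-ATPase subunits of the cap, 8 had higher means, where 8171 of all 16593 genes did. Their median difference was 0.068, the highest median of the classes. In limma 1 of the 10 had an unadjusted p under 0.05, beside 11% of all genes. The 10 genes were read in the same muscles and are not replicates of each other. Psmd11, a lid subunit known in human embryonic stem cells to raise proteasome assembly, read 9.68, 9.70, 9.78 and 9.60 in control and 9.80, 9.96, 9.95 and 9.70 in spermine oxidase muscles. Spermine oxidase muscle 4 lay within the control range, and the difference of 0.16 ± 0.066 had a limma unadjusted p = 0.0415 and an adjusted p = 0.427. Its 2 dimmer probes, at means of 8.54 and 8.22, differed by 0.0088 ± 0.036 and -0.032 ± 0.021. Psmd7, a partner of the deubiquitinating subunit, read 12.14, 12.20, 12.12 and 12.10 in control and 12.17, 12.34, 12.27 and 12.15 in spermine oxidase muscles (0.093 ± 0.046). Psmd2, a scaffold of the base like Psmd1, read 8.48, 8.54, 8.62 and 8.51 against 8.61, 8.58, 8.70 and 8.58 (0.081 ± 0.040). Both overlapped between the groups. Psmd4, a ubiquitin receptor (0.082 ± 0.043), Psmd1 (0.11 ± 0.082) and Psmd12 (0.055 ± 0.035) also had higher means. A dimmer Psmd12 probe differed by 0.15 ± 0.061 (limma unadjusted p = 0.0419). Psmd13 was the lowest of the class (-0.12 ± 0.062), Psmd14, the deubiquitinating enzyme of the lid, differed by -0.027 ± 0.080, and Psmd6 and Psmd8 by 0.016 ± 0.073 and 0.0055 ± 0.052.

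Among 6 assembly chaperones, Psmd10, or gankyrin, which holds an ATPase during assembly of the base and is known as an oncoprotein, was lower after spermine oxidase. Control muscles 1 to 4 read 10.64, 10.64, 10.74 and 10.77, and spermine oxidase muscles 1 to 4 read 10.36, 10.60, 10.57 and 10.53. Every spermine oxidase muscle lay below every control muscle, although spermine oxidase muscle 2, at 10.60, was close to control muscles 1 and 2, at 10.64. The difference was -0.18 ± 0.058 (limma unadjusted p = 0.0155, adjusted p = 0.325), and the other 2 probes differed by -0.15 ± 0.059 and -0.12 ± 0.045. Leaving out any 1 muscle kept it between -0.21 and -0.13. The other chaperones of the base, Psmd5 (-0.057 ± 0.044) and Psmd9, did not share this difference in size. Psmd9 read 8.55, 8.46, 8.55 and 8.49 in control and 8.57, 8.50, 8.57 and 8.58 in spermine oxidase muscles (0.042 ± 0.030). Psmg1, which helps the alpha ring to form, read 9.24, 9.21, 9.26 and 9.25 against 9.37, 9.26, 9.23 and 9.28 (0.046 ± 0.032), and Psmg2 and Psmg3 differed by 0.012 ± 0.060 and -0.036 ± 0.027. The 2 genes that met the rule by name only differed by -0.011 ± 0.034 (Psmc3ip) and -0.029 ± 0.053 (Psme3ip1). Second probes of Psmg2 (-0.067 ± 0.049) and Psme3ip1 (0.041 ± 0.034) had the opposite sign to the brightest, so the direction of these genes is not settled.

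Genes of the pathway outside the symbol rule were measured in 23 cases. At an unadjusted p under 0.05 in limma 4 were higher and 4 lower, together 34.8% beside 11% of all genes, 0 passed an adjusted p of 0.05, and their median difference was 0.016. Vcp, the ATPase that extracts ubiquitin-tagged proteins before degradation, read 13.27, 13.17, 13.19 and 13.23 in control and 13.08, 13.16, 13.03 and 13.15 in spermine oxidase muscles, without overlap (-0.11 ± 0.037, adjusted p = 0.365). Nfe2l1, the transcription factor gene named above, read 12.61, 12.60, 12.43 and 12.48 in control and 12.80, 12.71, 12.56 and 12.64 in spermine oxidase muscles (0.15 ± 0.060, adjusted p = 0.416). Its groups overlapped at control muscles 1 and 2. The ubiquitin-conjugating enzyme gene Ube2d3 (0.11 ± 0.040) and the shuttle gene Ubqln1 (0.10 ± 0.037) had higher means, with overlap. The remaining genes with an unadjusted p under 0.05 were Ubqln4, higher (0.27 ± 0.11), and Usp14 (-0.12 ± 0.052), Nfe2l2 (-0.079 ± 0.033) and Ube2k (-0.067 ± 0.027), lower, all with overlap. With the replicate block Sqstm1 passed (limma adjusted p = 0.0363), beside 1.6% of all genes. Without the block it differed by 0.23 ± 0.11 (adjusted p = 0.517).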

How the data were processed

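Total muscle RNA was hybridised to Illumina MouseRef-8 bead arrays. The authors deposited log2 values, which coincide closely between arrays at equal rank and so had been normalized. How this was done, the treatment of background and detection p-values are not stated in the sources read here, and depth is not defined for arrays. Gene names came from the platform annotation held by GEO, which gave 1 gene to 23978 of 25697 probes and left 1719 unnamed here. Groups come from the titles, 4 against 4. Differences were fitted in R 4.3.3 by limma 3.58.1 (lmFit, then eBayes, two-sided, Benjamini-Hochberg over 16593 genes, threshold 0.05, no filter on dim probes, no replicate block). Ratios were compared by exact permutation in Python 3.11.15, and figures drawn with matplotlib 3.10.9. Members, lists and the naming rule were chosen with earlier results of these data known. The rule names the 6 catalytic subunits, the activators, up to 3 members with the smallest p of each other class, up to 4 genes of each list, and Smox, and the remaining members follow by value. The list entries that no probe names are not analysed here, nor are Psmd3, Psmf1, Psma8, Psmb11 and Psmg4. The fit was tested on simulated data with known changes. Alternatives were the replicate block, quantile normalization, median centring, a filter on the dimmest 40% of probes, averaging the probes of a gene, subtraction of each array's lowest signal with 16 added, an intensity trend with a robust prior, a threshold of 0.10 and omission of single muscles. One more alternative, without both control muscle 4 and spermine oxidase muscle 1, was chosen after seeing the data.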

Additional observations from a re-analysis of the deposited data

Results flagged for a closer look

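Single muscles stood apart from the other 3 of their group, by Dixon's ratio of gap to range at the 95% level, in 7 of 90 member groups, where chance flags about 1 in 20, and for 1 of 9 other named genes. In control muscle 4, Psmc5 read 12.05 beside 12.23 to 12.25 and Psmd4 read 13.21 beside 13.33 to 13.35. In control muscle 1, Psmd12 read 11.93 beside 11.84 and 11.84, Psmd13 read 12.97 beside 12.88 to 12.89, and Psmd5 read 8.69 beside 8.65 and 8.65. In control muscle 3, Psmc6 read 8.34 beside 8.27 to 8.28, close to the floor. In spermine oxidase muscle 2, Psmd9 read 8.50 beside 8.57 to 8.58. In spermine oxidase muscle 1, Ifngr1 read 9.73 beside 9.88 to 9.91. None of the 5 inducible immunoproteasome genes had such a muscle in either group.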

How the results depend on the processing

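The count of 0 members past an adjusted p of 0.05 held under every alternative run, a threshold of 0.10 included. At an unadjusted p under 0.05 the 2 higher and 1 lower members became 5 and 6 with the replicate number as a block, 1 and 0 after subtracting the lowest signal, 1 higher with the intensity trend and 2 lower after quantile normalization. Leaving out single muscles gave 1 to 5 higher and 1 to 4 lower, median differences of -0.025 to 0.019 over all members and -0.21 to 0.023 over the inducible genes, and ratio differences of -0.24 to 0.047 (Psmb8 to Psmb5), -0.37 to 0.011 (Psmb9 to Psmb6) and -0.25 to -0.0019 (Psmb10 to Psmb7). The causes were not tested. Without any 1 muscle, Psmb5 ranged from -0.011 to 0.067, Psmb6 from -0.019 to 0.042, Psmb8 from -0.21 to 0.054, Psmb9 from -0.36 to 0.023, Psmb10 from -0.19 to 0.084, Psme2 from -0.15 to 0.0069 and Psme3 from -0.082 to 0.014. Of the 34 named genes these 7 turned sign, 19 kept it but moved by over 1.5 times, and 8 moved less (Psme4, Psmd10, Psmd11, Nfe2l1, Vcp, Ube2d3, Ubqln1 and Smox). Among the 19, Psme1 ranged from -0.33 to -0.053, H2-D1 from -0.31 to -0.051, H2-K1 from -0.31 to -0.083, Irf7 from -0.23 to -0.041 and Psma5 from -0.22 to -0.089. Psmb5 turned to -0.010 without both control muscle 4 and spermine oxidase muscle 1. The replicate block rests on hints. Bilateral muscles are mentioned in the protocol, which leaves paired legs possible, but whether equal numbers share a mouse is not labelled. Deviations of equally numbered muscles correlated across genes at 0.60, 0.67 and 0.60 for numbers 1, 3 and 4. For number 2 the correlation was -0.14, and unequal numbers correlated at -0.46 to 0.37. These values do not settle whether the muscles are pairs. The main fit took none because no label says that equal numbers mark 1 mouse. With the block, 266 of 16593 genes passed, Smox among them (adjusted p = 0.041) and 0 members, the smallest member adjusted p being 0.0618, and 11 members had an unadjusted p under 0.05 beside 15.9% of all genes. All 4 equally numbered differences had the same sign for 7 members higher and 5 lower, beside 11.3% and 11.1% of all genes. The ratios took no variance model, so the intensity trend gave none. Signal over background limits Psma1, Psma6 and Psmc6, which lie at the floor.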
